A study of Oryza sativa with 12 samples.

Results

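Storage globulins, oleosins and the genes of embryo maturation fill the protein bodies and oil bodies of a rice grain and prepare the embryo for drying. Their transcripts were followed in developing rice (Oryza sativa) grains of the RNA interference line RGB1Ri-5 and of its background cultivar WYJ8 (Wuyujing 8). The set was defined by identifier, from names of seed genes and not by a measured value, but with earlier results of these data known. Shares of all genes are therefore given below for scale and not as independent support. The set held 8 of the 35587 genes listed in any library. These were the globulins GLB1 and globulin 2, the oleosins OLE16 and OLE18 and the transcription factor VP1. The others were an EM-type LEA gene, RAB16A and a LEC1-like NF-YB gene. All 8 passed the filter for testing, an average of 1 FPKM or more (the fragments of a transcript per kilobase of its length, relative to all mapped reads) over the 12 libraries, which 21470 genes passed.

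RGB1Ri-5 grains carried a hairpin against RGB1, driven by the maize ubiquitin promoter, and came from 1 transgenic line, while WYJ8 grains carried no transgene. Grains of both genotypes were collected from field-grown plants at 10 and 5 days after flowering (DAF), with no agent applied. Total RNA of the grains was enriched for mRNA and sequenced in 3 libraries for each of the 4 groups. The grains came from labelled panicles, and neither the methods nor the labels say how many went into a library. Nor do they say whether the 3 libraries of a group came from separate plants, so the p-values measure the spread between these libraries. The transcript of RGB1 itself was not analysed here, since no source used pairs it with an identifier.

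Cereal seed globulins are storage proteins. GLB1 encodes the alpha-globulin of the starchy endosperm, while globulins of the vicilin type are stored in the embryo and aleurone. Oleosins are the small proteins that coat oil bodies, which in cereal grains lie mostly in the embryo and the aleurone. VP1, the rice counterpart of Arabidopsis ABI3, is a B3-domain transcription factor that carries the abscisic acid response of seeds. LEA proteins, among them the EM type and the dehydrin RAB16A, accumulate late in seed development and protect cells during drying. LEC1-like NF-YB proteins are histone-fold subunits of the NF-Y complex, and LEC1 itself sets off embryo maturation in Arabidopsis.

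Each library listed 27055 to 29576 genes, and its FPKM values summed to 543480 to 618797. Read totals are not part of these values, so the depth of each library is unknown and no interval for counting error is given. A gene that a library does not list was taken as 0 FPKM and is called unlisted below. In 2 groups a library stood apart. RGB1Ri-5 replicate 2 at 10 DAF had higher levels than the other RGB1Ri-5 libraries of that stage in 6 of the 8 genes, and replicates of this group correlated at r = 0.899 to 0.959 over all tested genes, against 0.971 to 0.990 within the other groups. WYJ8 replicate 3 at 5 DAF had the highest level of its group in 8 of the 8 genes. The summed FPKM of 13 starchy endosperm marker genes moved with both libraries: it was 20185 in RGB1Ri-5 replicate 2 at 10 DAF, against 1513 and 937 in replicates 1 and 3, and 24318 in WYJ8 replicate 3 at 5 DAF, against 9036 and 7394 in replicates 1 and 2. The part of this difference in the results below was not tested, and fitted values without these libraries are given beside the differences that they move most.

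**Figure D1:**
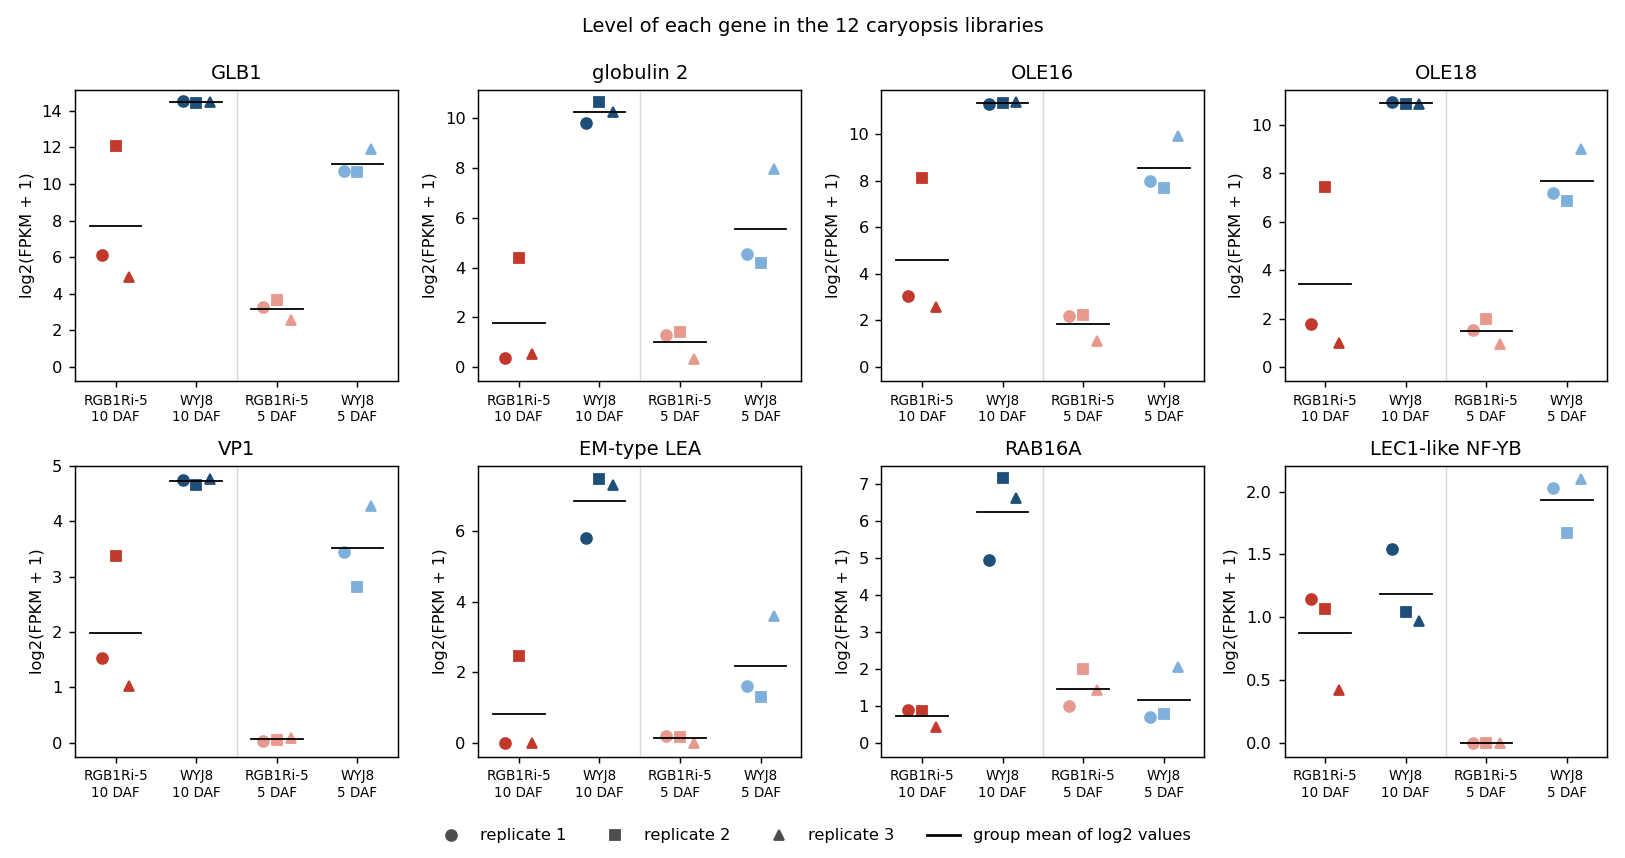
Level of each of the 8 genes as log2(FPKM + 1) on the vertical axis, with a panel for each gene and the 4 groups along the horizontal axis. Each symbol is a library and each line the mean of 3 libraries. In 7 panels the 3 RGB1Ri-5 libraries at 10 DAF lie below the 3 WYJ8 libraries of that stage, with RGB1Ri-5 replicate 2 nearest to WYJ8 in 6 of them.

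To see how far the storage and maturation genes depended on genotype, RGB1Ri-5 was compared with WYJ8 at each stage on log2(FPKM + 1), and a gene was called at a limma adjusted p under 0.05 and a log2 difference of at least 1 in either direction. At 10 DAF 7 of the 8 genes were lower in RGB1Ri-5 and none was higher, where 3.33% of all tested genes were called lower, 36.4% higher and 39.7% in either direction. At 5 DAF 7 of the 8 were again lower and none was higher, where 10.1% of all tested genes were called lower, 10.8% higher and 20.8% in either direction. Every RGB1Ri-5 library lay below every WYJ8 library for 7 of the 8 genes at each stage, and above for none. Over all tested genes, 5.6% lay below in this way and 76.3% above at 10 DAF, and 34.9% lay below and 26.6% above at 5 DAF, so that at 5 DAF this order of the libraries was common. LEC1-like NF-YB was not called at 10 DAF and RAB16A was not called at 5 DAF. The median log2 difference of the 8 genes was -6.40 at 10 DAF and -4.00 at 5 DAF, beside medians of 0.80 and -0.07 over all tested genes. Without RGB1Ri-5 replicate 2 at 10 DAF the same count of 7 was lower at that stage, with a median of -7.69, and without WYJ8 replicate 3 at 5 DAF 6 were lower at that stage, with a median of -3.21. At 10 DAF most genes therefore read higher in RGB1Ri-5 on the FPKM scale, which sets each gene against the total of its library, and the lower values of the 7 genes stand against that shift. Scaling by the median of ratios brought the median of all genes to 0.00, with 1986 genes called higher and 1952 lower at 10 DAF in place of 7811 and 716, and the same count of 7 of the 8 genes was lower. Since RNA came from grains and not from single tissues, fewer cells of a type and less RNA per cell cannot be told apart.

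GLB1 (LOC_Os05g41970, chromosome 5, 24576896 to 24577736) was the most abundant of the 8 transcripts in WYJ8. At 10 DAF it had 67.3, 4266 and 29.2 FPKM in RGB1Ri-5 replicates 1, 2 and 3, against 24102, 21895 and 22505 FPKM in WYJ8. The WYJ8 libraries were within 1.10-fold of each other, the RGB1Ri-5 libraries were spread 146-fold, and the highest of them was far below the lowest of WYJ8. In WYJ8 at 10 DAF this single gene took 3.99%, 3.63% and 3.64% of all FPKM and ranked first or second in the library. In RGB1Ri-5 of that stage it ranked first in replicate 2, with 0.785% of all FPKM, but 1533rd in replicate 1 and 4529th in replicate 3. At 5 DAF it had 8.60, 11.7 and 4.88 FPKM in RGB1Ri-5, against 1684, 1601 and 3889 FPKM in WYJ8, and the groups did not overlap. GLB1 averaged 1454 ± 2435 FPKM in RGB1Ri-5 and 22834 ± 1140 FPKM in WYJ8 at 10 DAF, and 8.40 ± 3.43 FPKM in RGB1Ri-5 and 2392 ± 1297 FPKM in WYJ8 at 5 DAF (SD, n = 3 each). The RGB1Ri-5 mean was thus 6.37% of the WYJ8 mean at 10 DAF and 0.351% of it at 5 DAF. The log2 difference was -6.79 (SE 1.34, adjusted p = 0.000615) at 10 DAF and -7.93 (SE 1.34, adjusted p = 0.000461) at 5 DAF. The 10 DAF difference of GLB1 was -8.97 without RGB1Ri-5 replicate 2, and -5.99 or -5.40 without replicate 1 or 3, all still called.

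Globulin 2 (LOC_Os03g57960, chromosome 3, 33020034 to 33022949) was lower in RGB1Ri-5 by a wider margin at 10 DAF. It had 0.269, 19.8 and 0.449 FPKM in RGB1Ri-5, against 901, 1600 and 1235 FPKM in WYJ8. Even the highest RGB1Ri-5 library held a small part of the lowest WYJ8 one, and the RGB1Ri-5 mean was 0.549% of the WYJ8 mean. At 5 DAF the gene had 1.42, 1.67 and 0.258 FPKM in RGB1Ri-5, against 22.2, 17.4 and 248 FPKM in WYJ8. The groups did not overlap, but WYJ8 replicate 3 alone held most of its group's signal. The log2 difference was -8.49 (SE 1.08, adjusted p = 2.72e-05) at 10 DAF and -4.56 (SE 1.08, adjusted p = 0.00416) at 5 DAF. For globulin 2 the 10 DAF difference was -9.80 without RGB1Ri-5 replicate 2, -7.79 without replicate 1 and -7.88 without replicate 3, and the 5 DAF difference was -3.36 without WYJ8 replicate 3 and -5.24 without WYJ8 replicate 2. All of these were still called.

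The oleosins moved side by side. OLE16 (LOC_Os04g46200, chromosome 4, 27362085 to 27362954) had 7.36, 280 and 5.06 FPKM in RGB1Ri-5 at 10 DAF, against 2529, 2638 and 2718 FPKM in WYJ8. OLE18 (LOC_Os03g49190, chromosome 3, 28021861 to 28022837) had 2.46, 172 and 0.993 FPKM in RGB1Ri-5 at 10 DAF, against 1966, 1867 and 1850 FPKM in WYJ8. For both oil body genes the WYJ8 libraries were within 1.07-fold and 1.06-fold of each other, RGB1Ri-5 replicate 2 was far above replicates 1 and 3, and the genotypes did not overlap. At 5 DAF OLE16 had 3.52, 3.72 and 1.19 FPKM in RGB1Ri-5, against 254, 207 and 983 FPKM in WYJ8. OLE18 had 1.86, 2.99 and 0.955 FPKM in RGB1Ri-5 at 5 DAF, against 144, 116 and 504 FPKM in WYJ8. Here WYJ8 replicate 3 was the library that stood above its group, and every RGB1Ri-5 library was again below every WYJ8 library. As means, RGB1Ri-5 had 3.71% of the WYJ8 level of OLE16 and 3.08% of that of OLE18 at 10 DAF, and 0.584% and 0.760% at 5 DAF.

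The log2 difference of OLE16 was -6.76 (SE 1.15, adjusted p = 0.000203) at 10 DAF and -6.70 (SE 1.15, adjusted p = 0.000498) at 5 DAF. That of OLE18 was -7.48 (SE 1.27, adjusted p = 0.000203) at 10 DAF and -6.18 (SE 1.27, adjusted p = 0.0017) at 5 DAF. Both oleosins were called at both stages without any of the 12 libraries. The single libraries nevertheless set the size of the differences. The 10 DAF differences were -8.53 for OLE16 and -9.50 for OLE18 without RGB1Ri-5 replicate 2, and without replicate 3 they were -5.76 and -6.28. Without replicate 1 they were -5.99 for OLE16 and -6.67 for OLE18, and without WYJ8 replicate 3 the 5 DAF differences were -6.00 and -5.53.

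VP1 (LOC_Os01g68370, chromosome 1, 39723154 to 39726988), the regulator of the set, was present in WYJ8 at 10 DAF at far lower levels than the globulins and oleosins and had the smallest called difference at 10 DAF. It had 1.91, 9.37 and 1.05 FPKM in RGB1Ri-5 at that stage, against 25.9, 24.0 and 26.2 FPKM in WYJ8. At 5 DAF it had 0.0242, 0.0408 and 0.0689 FPKM in RGB1Ri-5, against 9.81, 6.02 and 18.4 FPKM in WYJ8. No RGB1Ri-5 library at 5 DAF exceeded 0.0689 FPKM, and at 10 DAF all 3 were above that and still below every WYJ8 library. The RGB1Ri-5 mean was 16.2% of the WYJ8 mean at 10 DAF and 0.391% at 5 DAF. The log2 difference was -2.73 (SE 0.50, adjusted p = 0.000335) at 10 DAF and -3.45 (SE 0.50, adjusted p = 0.000148) at 5 DAF. Because 1 FPKM was added to every value, this scale understates the change of a gene as low as VP1 at 5 DAF, where a pseudocount of 0.1 gave a difference of -6.18. The 10 DAF difference of VP1 was -3.43 without RGB1Ri-5 replicate 2.

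The LEA genes divided by stage. The EM-type LEA gene (LOC_Os05g28210, chromosome 5, 16518573 to 16519496) was unlisted in RGB1Ri-5 replicates 1 and 3 at 10 DAF and had 4.54 FPKM in replicate 2, against 54.5, 177 and 156 FPKM in WYJ8. RAB16A (LOC_Os11g26790, chromosome 11, 15342563 to 15343857) had 0.861, 0.836 and 0.341 FPKM in RGB1Ri-5 at 10 DAF, against 29.5, 141 and 97.4 FPKM in WYJ8. In both genes WYJ8 replicate 1 was the lowest of its group and yet far above RGB1Ri-5. In RAB16A, unlike the storage genes, RGB1Ri-5 replicate 2 did not stand above the other RGB1Ri-5 libraries. The RGB1Ri-5 mean was 1.17% of the WYJ8 mean for the EM-type gene and 0.760% for RAB16A. At 10 DAF the log2 difference was -6.03 (SE 0.72, adjusted p = 1.83e-05) for the EM-type gene and -5.50 (SE 0.52, adjusted p = 5.03e-06) for RAB16A. Without RGB1Ri-5 replicate 2 the difference of the EM-type gene was -6.86, and without WYJ8 replicate 1 that of RAB16A was -6.15.

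At 5 DAF both LEA genes were low in both genotypes, at no more than 11.0 FPKM in any library. The EM-type gene had 0.151 and 0.131 FPKM in RGB1Ri-5 replicates 1 and 2 and was unlisted in replicate 3, against 2.05, 1.48 and 11.0 FPKM in WYJ8. Its groups did not overlap, and its log2 difference was -2.04 (SE 0.72, adjusted p = 0.0332). That call rested on WYJ8 replicate 3 and was also lost without any 1 of the RGB1Ri-5 libraries of that stage: without WYJ8 replicate 3 the difference of the EM-type gene was -1.33 (adjusted p = 0.141), and with all genes kept in the test the adjusted p was 0.0706. RAB16A had 1.00, 2.96 and 1.67 FPKM in RGB1Ri-5 at 5 DAF, against 0.621, 0.707 and 3.14 FPKM in WYJ8. These ranges overlapped, and the difference of RAB16A was 0.30 on the log2 scale, with a 95% interval from -0.84 to 1.43 and an adjusted p of 0.66.

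The LEC1-like NF-YB gene (LOC_Os02g49370, chromosome 2, 30164272 to 30165441) differed from the other 7 in being higher in WYJ8 at 5 DAF than at 10 DAF. At 10 DAF it had 1.21, 1.10 and 0.339 FPKM in RGB1Ri-5, against 1.92, 1.05 and 0.963 FPKM in WYJ8. These levels overlapped, and the log2 difference was -0.31 (SE 0.22, adjusted p = 0.208), with a 95% interval from -0.79 to 0.17. After scaling by the median of ratios, which takes out the shift of the median gene at 10 DAF, the difference of the LEC1-like gene was -0.85 (adjusted p = 0.00745), short of the fold limit. At 5 DAF the gene was unlisted in all 3 RGB1Ri-5 libraries, against 3.07, 2.18 and 3.29 FPKM in WYJ8. The difference on the log2(FPKM + 1) scale was -1.93 (SE 0.22, adjusted p = 2.43e-05), and no fold is given against a group in which the gene is unlisted.

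**Figure D2:**
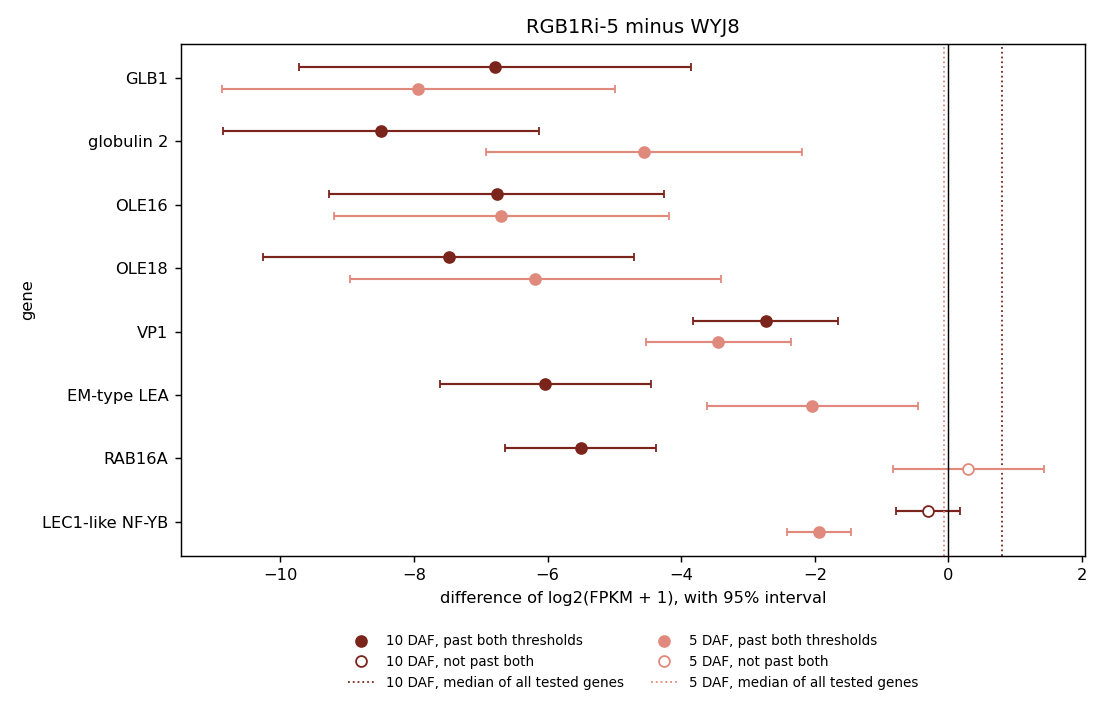
Difference of log2(FPKM + 1), RGB1Ri-5 minus WYJ8, for each of the 8 genes at 10 DAF (dark) and 5 DAF (light), with 95% intervals from the limma fit. Filled points passed both thresholds, and dotted lines mark the median of all 21470 tested genes, at 0.80 for 10 DAF and -0.07 for 5 DAF. Open points are LEC1-like NF-YB at 10 DAF, at -0.31, and RAB16A at 5 DAF, at 0.30.

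NF-YB1, counted here among the starchy endosperm markers, lies next to the LEC1-like gene on chromosome 2 and encodes another NF-YB subunit. No listed gene lies between them, and 26.0 kb separate them. NF-YB1 (LOC_Os02g49410) had 17.5, 110 and 8.04 FPKM in RGB1Ri-5 at 10 DAF, against 331, 320 and 252 FPKM in WYJ8. It had 0.155, 0.607 and 0.0754 FPKM in RGB1Ri-5 at 5 DAF, against 148, 133 and 294 FPKM in WYJ8. RGB1Ri-5 replicate 2 at 10 DAF and WYJ8 replicate 3 at 5 DAF were the highest of their groups, as for the storage genes. Its log2 difference between the genotypes was -3.50 (SE 0.68, adjusted p = 0.000549) at 10 DAF, where the LEC1-like gene was not called, and -7.16 (SE 0.68, adjusted p = 7.1e-06) at 5 DAF. The 10 DAF difference of NF-YB1 was -4.54 without RGB1Ri-5 replicate 2.

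Levels in RGB1Ri-5 at 10 DAF were then set beside those of WYJ8 at 5 DAF, to place the late transgenic grains against the early WYJ8 grains without a test, since genotype and stage both differ. For 6 genes (GLB1, globulin 2, OLE16, OLE18, VP1 and the EM-type gene) the group means had 1 order: lowest in the 5 DAF grains of RGB1Ri-5, then its 10 DAF grains, then WYJ8 at 5 DAF, and highest in WYJ8 at 10 DAF. The order of the RGB1Ri-5 stages rested on replicate 2 for 3 of the 6: without it the 10 DAF mean was 0.359 FPKM for globulin 2 and 1.73 FPKM for OLE18, against 1.12 and 1.93 FPKM at 5 DAF, and the EM-type gene was unlisted. RAB16A stood out in WYJ8 at 10 DAF alone, with means of 0.679 ± 0.293 FPKM in RGB1Ri-5 at 10 DAF, 1.88 ± 0.995 FPKM in RGB1Ri-5 at 5 DAF and 1.49 ± 1.43 FPKM in WYJ8 at 5 DAF (SD, n = 3 each). RGB1Ri-5 replicate 2 lay within the range of the WYJ8 5 DAF libraries for 6 genes, above it for GLB1 and below it for LEC1-like NF-YB. RGB1Ri-5 replicate 3 lay below that range for all 8 genes, and replicate 1 for 7, the exception being RAB16A. Relative to the WYJ8 mean at 10 DAF, RGB1Ri-5 replicate 2 reached 18.7% for GLB1, 1.59% for globulin 2, 10.7% for OLE16, 9.07% for OLE18, 37.0% for VP1, 3.51% for the EM-type gene and 0.935% for RAB16A. The WYJ8 mean at 5 DAF was 10.5%, 7.69%, 18.3%, 13.4%, 45.0%, 3.75% and 1.67% of the same values. Of these 7 genes, then, measured against WYJ8 at 10 DAF, VP1 and the storage genes GLB1, OLE16 and OLE18 were the nearest to it in that replicate and RAB16A was the farthest, although RAB16A lay within the range of WYJ8 at 5 DAF. In replicate 1 the shares were 0.295% for GLB1, 0.130% for OLE18 and 7.53% for VP1, and in replicate 3 they were 0.128%, 0.0524% and 4.14%.

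**Figure D3:**
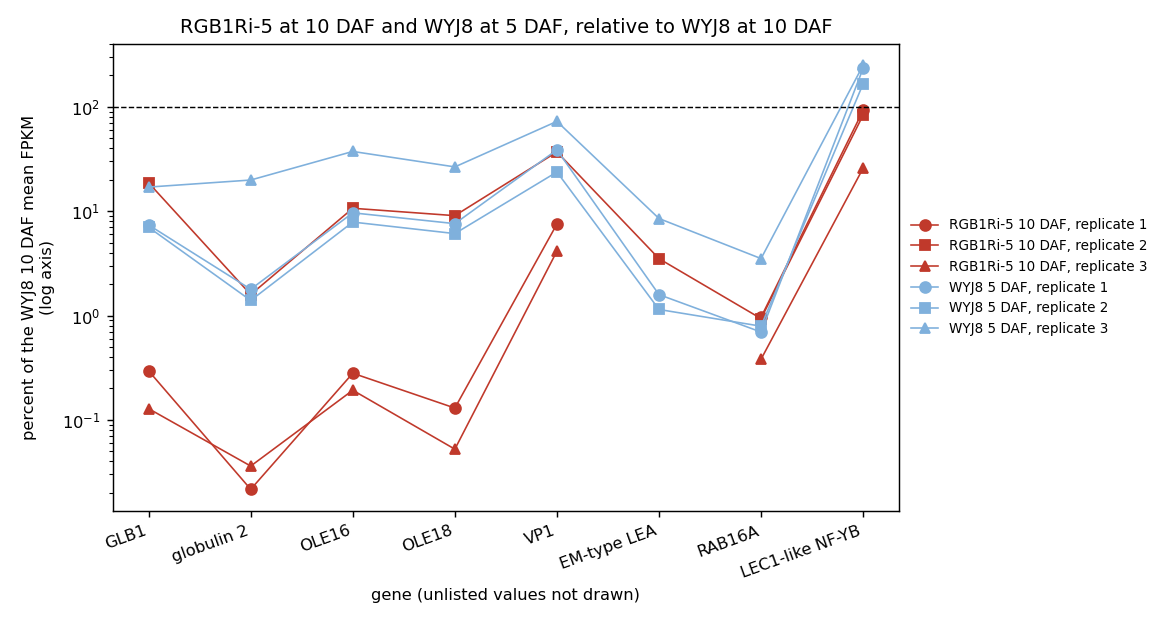
FPKM of each gene in the 3 RGB1Ri-5 libraries at 10 DAF (red) and the 3 WYJ8 libraries at 5 DAF (blue), as a percent of the WYJ8 mean at 10 DAF, on a log axis. Lines join the genes of a library and unlisted values are not drawn. RGB1Ri-5 replicate 2 runs among the WYJ8 5 DAF libraries for most genes, while replicates 1 and 3 run below them up to VP1, at 7.53% and 4.14%.

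Storage products accumulate as a grain fills in the days after flowering, and the next comparison asked which of the 8 genes changed between the sampled stages in each genotype. In RGB1Ri-5, 2 of the 8 genes, GLB1 and VP1, were called higher at 10 DAF and none lower, where 7.56% of all tested genes were called higher, 9.35% lower and 16.9% in either direction. In WYJ8, 7 of the 8 were called higher at 10 DAF and none lower, where 2.11% of all tested genes were called higher, 33.3% lower and 35.5% in either direction. The median log2 difference of the 8 genes was 1.40 in RGB1Ri-5 and 3.30 in WYJ8, beside 0.10 and -0.77 over all tested genes. LEC1-like NF-YB was the gene not called in WYJ8. Every WYJ8 library at 10 DAF was below every one at 5 DAF, as was true of 79% of all tested genes, and the difference was -0.75 on the log2 scale (SE 0.22, adjusted p = 0.00781), which is under the fold limit and close to the median of all genes.

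In RGB1Ri-5 the change of GLB1 was 4.53 (SE 1.34, adjusted p = 0.0171) and that of VP1 was 1.92 (SE 0.50, adjusted p = 0.00834), 10 DAF minus 5 DAF on the log2 scale. All 3 libraries at 10 DAF were above all 3 at 5 DAF for GLB1, OLE16, VP1 and LEC1-like NF-YB, below them for RAB16A, and overlapped for globulin 2, OLE18 and the EM-type gene. Of all tested genes, 33% were higher without overlap and 20.3% were lower. OLE16 missed the threshold, at 2.75 (SE 1.15, adjusted p = 0.0721, 95% interval 0.24 to 5.26), and so did OLE18, at 1.91 (SE 1.27, adjusted p = 0.247, 95% interval -0.86 to 4.69). The differences of globulin 2 and the EM-type gene were 0.75 (adjusted p = 0.609) and 0.70 (adjusted p = 0.464), and that of RAB16A was -0.74 (adjusted p = 0.274). LEC1-like NF-YB, unlisted at 5 DAF, was listed in every RGB1Ri-5 library at 10 DAF, a difference of 0.88 (SE 0.22, adjusted p = 0.00667) that stayed under the fold limit.

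The high library decided much of this comparison. Without RGB1Ri-5 replicate 2 the changes in RGB1Ri-5 were 2.34 for GLB1 (adjusted p = 0.0015) and 1.23 for VP1 (adjusted p = 0.0103), both still called, and 0.98 for OLE16, while globulin 2, OLE18 and the EM-type gene turned to -0.57, -0.10 and -0.13, and the median of the 8 genes was 0.34. Without replicate 1 or without replicate 3 at 10 DAF, GLB1 was at 5.33 or 5.91 and OLE16 passed, at 3.52 or 3.75. GLB1 was not called without RGB1Ri-5 replicate 3 at 5 DAF (adjusted p = 0.055) or with the 6 RGB1Ri-5 libraries alone (adjusted p = 0.0772).

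Of the 8 genes, those that rose most in WYJ8 were those of the LEA genes and globulin 2. From the group means, RAB16A was 60.0-fold higher at 10 DAF than at 5 DAF, the EM-type gene 26.7-fold and globulin 2 13-fold. GLB1 was 9.55-fold higher, OLE18 7.45-fold, OLE16 5.46-fold and VP1 2.22-fold. WYJ8 replicate 3 at 5 DAF weighed on all of these: without it the folds were 135 for RAB16A, 73.2 for the EM-type gene, 62.9 for globulin 2, 13.9 for GLB1, 14.6 for OLE18, 11.4 for OLE16 and 3.20 for VP1. For these 7 genes all WYJ8 libraries at 10 DAF were above all WYJ8 libraries at 5 DAF, as was true of 4.62% of all tested genes. RAB16A averaged 89.4 ± 56.3 FPKM at 10 DAF and 1.49 ± 1.43 FPKM at 5 DAF, and the EM-type gene 129 ± 65.6 FPKM at 10 DAF and 4.84 ± 5.34 FPKM at 5 DAF (SD, n = 3 each). The log2 difference was 5.06 for RAB16A (SE 0.52, adjusted p = 1.04e-05), 4.69 for the EM-type gene (SE 0.72, adjusted p = 0.000116) and 4.68 for globulin 2 (SE 1.08, adjusted p = 0.00183). These 3 were called without any of the 12 libraries. Without WYJ8 replicate 3 at 5 DAF globulin 2 was at 5.87 and the EM-type gene at 5.40, without WYJ8 replicate 2 at 5 DAF globulin 2 was at 4.0, and without WYJ8 replicate 1 at 10 DAF RAB16A was at 5.71.

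The storage genes and VP1 passed in WYJ8 by a narrower margin. The difference was 3.38 for GLB1 (adjusted p = 0.0358), 2.82 for OLE16 (adjusted p = 0.0396), 3.21 for OLE18 (adjusted p = 0.0349) and 1.21 for VP1 (adjusted p = 0.041). With the replicate numbers as a block over all 12 libraries, the adjusted p of VP1 was 0.0605 and its call was lost. That block gives both genotypes the same replicate effects, and a block for the WYJ8 libraries alone was not fitted. The call of VP1 was also lost with a pseudocount of 0.1 (adjusted p = 0.0734), as was that of OLE18 (adjusted p = 0.053). Each of these 4 calls was lost when any WYJ8 library other than replicate 3 at 5 DAF was left out, with adjusted p up to 0.0897 for GLB1, 0.12 for OLE16, 0.103 for OLE18 and 0.162 for VP1, and 3 of the 8 genes then stayed called. The call of OLE16 was also lost without RGB1Ri-5 replicate 1 (adjusted p = 0.0509) or 2 (adjusted p = 0.0505) at 5 DAF. That of VP1 was lost without any 1 of the RGB1Ri-5 libraries of that stage (adjusted p 0.0509 to 0.053). Without WYJ8 replicate 3 at 5 DAF, OLE16 was at 3.51 and OLE18 at 3.87. The spread of the fit comes from all 4 groups: with the 6 WYJ8 libraries alone the adjusted p was 0.00574 for GLB1, 0.00232 for OLE16, 0.00076 for OLE18 and 0.00896 for VP1.

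**Figure D4:**
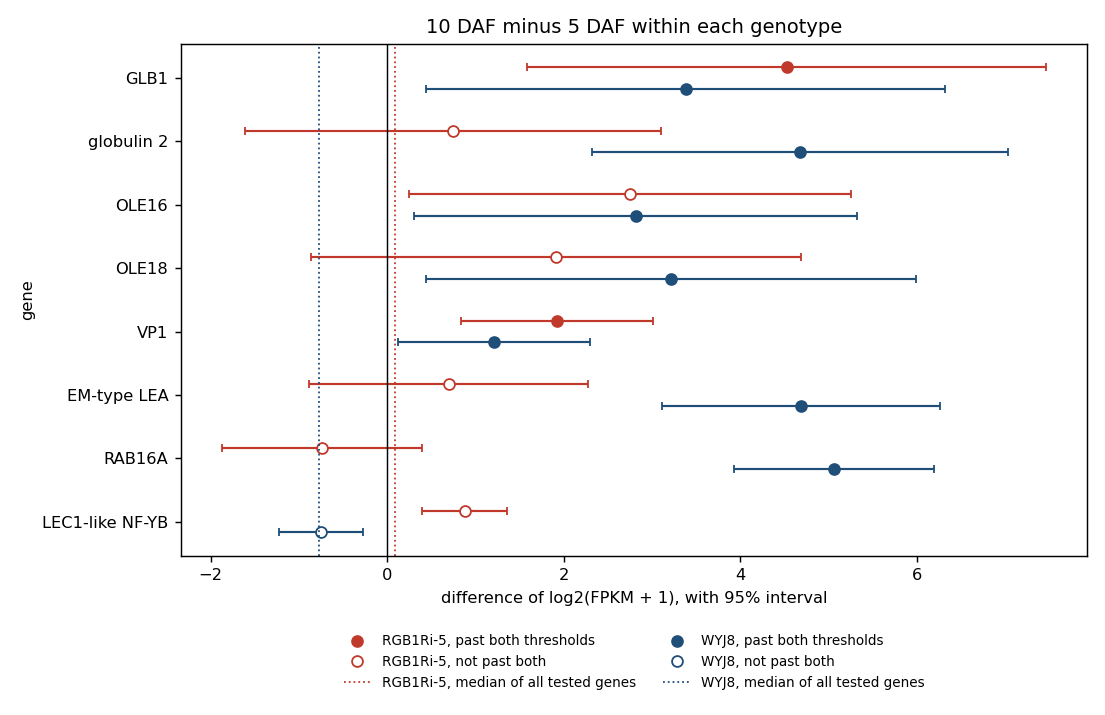
Difference of log2(FPKM + 1), 10 DAF minus 5 DAF, for each of the 8 genes in RGB1Ri-5 (red) and WYJ8 (blue), with 95% intervals from the limma fit. Filled points passed both thresholds, which 2 genes did in RGB1Ri-5 and 7 in WYJ8, and dotted lines mark the median of all tested genes. RAB16A lies at -0.74 in RGB1Ri-5 and at 5.06 in WYJ8.

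Whether the genotype difference itself changed between the stages was tested as an interaction, the 10 DAF difference minus the 5 DAF difference, at an adjusted p under 0.05. It passed for 4 of the 8 genes, of which 3 were negative and 1 positive, where 8.45% of all tested genes passed with a negative value and 67.2% with a positive one on the FPKM scale, around a median of 0.86. With a fold limit as well the 4 genes still passed, where 6.94% of all genes passed with a negative value, 41.4% with a positive one and 48.3% in either direction. That balance depended on the scaling. By the median of ratios 2872 genes passed both limits with a negative value and 2348 with a positive one, not 1491 and 8882. The median was then -0.06, and the 4 genes kept their signs and an adjusted p under 0.05. LEC1-like NF-YB, at 0.89 (adjusted p = 0.0409), fell short of the fold limit by that scaling. On the FPKM scale RAB16A had the largest interaction, at -5.80 (SE 0.73, adjusted p = 4.09e-05). Its genotypes overlapped at 5 DAF and were far apart at 10 DAF. The EM-type gene was at -3.99 (SE 1.02, adjusted p = 0.00402) and globulin 2 at -3.93 (SE 1.53, adjusted p = 0.0341). LEC1-like NF-YB ran the other way, at 1.63 (SE 0.31, adjusted p = 0.000619). For GLB1, OLE16, OLE18 and VP1 the values were 1.15, -0.06, -1.30 and 0.71, with adjusted p of 0.593, 0.973, 0.52 and 0.368, and standard errors of 1.90, 1.62, 1.79 and 0.70 leave room for large differences either way. VP1, whose low values at 5 DAF the added 1 FPKM compresses, passed at 2.99 (adjusted p = 0.00882) with a pseudocount of 0.1, and was at -0.39 by the median of ratios. Without RGB1Ri-5 replicate 2 at 10 DAF, OLE16 (-1.83, adjusted p = 0.0381) and OLE18 (-3.31, adjusted p = 0.00116) also passed, GLB1 was at -1.04, globulin 2 at -5.25, VP1 at 0.01 and the EM-type gene at -4.81. Without WYJ8 replicate 3 at 5 DAF, globulin 2 was at -5.13, OLE16 at -0.76, OLE18 at -1.95 and the EM-type gene at -4.70. Globulin 2 did not pass in 8 of the 12 fits that left out a library, at -3.92 to -3.23 (adjusted p 0.0579 to 0.0848): without RGB1Ri-5 replicates 1 or 3 or WYJ8 replicates 2 or 3 at 10 DAF, and without RGB1Ri-5 replicates 1 or 2 or WYJ8 replicates 1 or 2 at 5 DAF.

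Ratios within a library do not depend on its total. OLE18 was 0.334, 0.612 and 0.196 times the FPKM of OLE16 in RGB1Ri-5 at 10 DAF, against 0.778, 0.708 and 0.681 times in WYJ8. At 5 DAF the ratio was 0.528, 0.804 and 0.801 in RGB1Ri-5, against 0.568, 0.559 and 0.512 in WYJ8. At 10 DAF every RGB1Ri-5 library thus had a lower ratio than every WYJ8 library, although replicates 1 and 3 rest on OLE18 levels of 2.46 and 0.993 FPKM, and at 5 DAF replicates 2 and 3 of RGB1Ri-5 were above WYJ8 and replicate 1 was within its range. Globulin 2 reached 0.400%, 0.464% and 1.54% of the FPKM of GLB1 in RGB1Ri-5 at 10 DAF, against 3.74%, 7.31% and 5.49% in WYJ8. At 5 DAF it reached 16.5%, 14.3% and 5.28% in RGB1Ri-5, against 1.32%, 1.09% and 6.37% in WYJ8. At 10 DAF the globulins thus differed in ratio without overlap between the genotypes, and at 5 DAF they overlapped. The ratios of RGB1Ri-5 replicates 1 and 3 at 10 DAF rest on globulin 2 levels of 0.269 and 0.449 FPKM. In RGB1Ri-5 at 5 DAF globulin 2 was at 0.258 to 1.67 FPKM and the oleosins were at 0.955 to 3.72 FPKM, so these ratios also rest on low levels. All 8 genes together took 0.0145%, 0.875% and 0.00662% of the FPKM in RGB1Ri-5 at 10 DAF, against 4.90%, 4.70% and 4.62% in WYJ8. At 5 DAF their share was 0.00284%, 0.00400% and 0.00155% in RGB1Ri-5, against 0.382%, 0.333% and 0.989% in WYJ8.

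Across the 12 libraries the log2 levels of GLB1, OLE16, OLE18 and VP1 followed each other closely. Pearson r was 0.990 between GLB1 and OLE16, 0.995 between OLE16 and OLE18, 0.989 between GLB1 and VP1 and 0.971 between OLE18 and VP1. Globulin 2 was at 0.972 with the EM-type gene, 0.970 with OLE18, 0.960 with OLE16, 0.926 with VP1 and 0.925 with GLB1. The EM-type gene and RAB16A were at 0.924 with each other, RAB16A was at 0.648 with GLB1, and RAB16A and LEC1-like NF-YB were at 0.0910. These values describe 12 libraries in 4 groups, share the group differences given above and carry no test. Among the 10535 genes that averaged 10 FPKM or more, the gene most like VP1 was LOC_Os03g21790, at r = 0.998 and a mean of 163 FPKM, and the gene most like OLE18 was LOC_Os01g19770, at r = 0.997 and a mean of 29.3 FPKM. The best match was at 0.983 for RAB16A and 0.958 for LEC1-like NF-YB, and OLE16 and OLE18 were each the third-best match of the other. The best match of GLB1, at 0.995, and the second-best of OLE18, at 0.996, were among the starchy endosperm markers.

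A wider list of 16 genes was drawn up for embryo maturation in rice, with identifiers that were not checked against a source. It held other B3 and NF-YB regulators, abscisic acid response factors, LEA, dehydrin and oil-related genes, aquaporins and a peroxiredoxin. The list gave a less uniform picture than the 8. Of its 13 tested genes, 6 were lower and 1 was higher in RGB1Ri-5 at 10 DAF (median -0.35). At 5 DAF 5 were lower and 2 higher (median -0.49). Over all tested genes 3.33% were called lower and 36.4% higher at 10 DAF (median 0.80), and 10.1% and 10.8% at 5 DAF (median -0.07). In RGB1Ri-5, 1 of the list was higher and 3 were lower at 10 DAF than at 5 DAF (median 0.40). In WYJ8 5 were higher and 1 was lower (median 0.15). Between the stages 7.56% of all tested genes were higher and 9.35% lower in RGB1Ri-5 (median 0.10), and 2.11% and 33.3% in WYJ8 (median -0.77). The genotype differences of the list at 10 DAF ran from -6.99, for the peroxiredoxin gene, to 1.05. The summed FPKM of all 16 was 133 to 388 in RGB1Ri-5 at 10 DAF, against 2034 to 2380 in WYJ8. At 5 DAF it was 165 to 222 in RGB1Ri-5, against 251 to 592 in WYJ8. Most of the WYJ8 sum at 10 DAF came from 1 aquaporin gene. It had 1404, 1492 and 1626 FPKM there, against 3.82, 223 and 1.30 FPKM in RGB1Ri-5.

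Markers of the grain's tissues moved as well. The 13 starchy endosperm markers summed to 937 to 20185 FPKM in RGB1Ri-5 at 10 DAF, against 58380 to 66268 FPKM in WYJ8, and to 46.5 to 108 FPKM in RGB1Ri-5 at 5 DAF, against 7394 to 24318 FPKM in WYJ8. At 10 DAF 11 of the 13 were called lower in RGB1Ri-5 and 1 higher, beside 3.33% and 36.4% of all tested genes. At 5 DAF all 13 were called lower, beside 10.1% of all. The gene called higher was unlisted in all 3 WYJ8 libraries at 10 DAF and averaged above 1000 FPKM in the libraries that list it, so its 0 may be a failed estimate. The 5 embryo cell markers, each listed in some library of every group and 1 of them shared with the wider list above, summed to 62.8 to 73.4 FPKM in RGB1Ri-5 at 10 DAF, against 20.2 to 32.5 FPKM in WYJ8, and to 31.2 to 40.1 FPKM in RGB1Ri-5 at 5 DAF, against 87.4 to 95.9 FPKM in WYJ8. Most of the 5 DAF gap came from the shared gene, which had 0.182 and 0.0846 FPKM in RGB1Ri-5 replicates 1 and 3 and was unlisted in replicate 2, against 52.6, 42.5 and 55.2 FPKM in WYJ8. Of the 4 tested, 1 was called higher and none lower in RGB1Ri-5 at 10 DAF, where 36.4% of all tested genes were called higher and the list's median of 0.87 was close to the 0.80 of all genes, and 1 was lower and none higher at 5 DAF, where 10.1% of all were lower. That called at 10 DAF was ROC1, a homeobox gene of the outer cell layer, at 37.7, 27.8 and 35.1 FPKM in RGB1Ri-5, against 6.53, 8.45 and 5.38 FPKM in WYJ8 (log2 difference 2.16, adjusted p = 3.03e-06). OSH1, a knotted-like homeobox gene of the shoot meristem, was at 8.73, 4.45 and 11.6 FPKM in RGB1Ri-5, against 3.68, 3.27 and 3.53 FPKM in WYJ8, a log2 difference of 0.96 (adjusted p = 0.00228) that missed the fold limit. The 6 pericarp and nucellus markers were each also listed in every group. Apart from MADS29 they were photosynthesis genes (LHCB and RBCS), whose identifiers were not checked against a source. The 6 summed to 1071 to 1960 FPKM in RGB1Ri-5 at 10 DAF, against 1013 to 1337 FPKM in WYJ8. At 5 DAF they summed to 3733 to 4267 FPKM in RGB1Ri-5, against 597 to 846 FPKM in WYJ8. MADS29 went against that sum at 5 DAF, with 6.48, 6.41 and 7.37 FPKM in RGB1Ri-5, against 39.1, 44.2 and 33.0 FPKM in WYJ8. Its log2 difference was -2.35 (adjusted p = 6.96e-07). Of these 6, 3 were called higher and none lower in RGB1Ri-5 at 10 DAF, beside 36.4% of all tested genes higher and with a list median of 0.71 against 0.80, and 4 were higher and 2 lower at 5 DAF, beside 10.8% and 10.1% of all. Without RGB1Ri-5 replicate 2 the 10 DAF counts were 12 of 13 endosperm markers lower, 2 of 4 embryo cell markers higher and 3 of 6 pericarp and nucellus markers higher. The part of these tissue differences in the values of the 8 genes was not tested.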

How the data were processed

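Total RNA from the grains, which the study's results call caryopses, was enriched for mRNA and sequenced on an Illumina HiSeq X instrument. The authors removed reads with adapters, with over 5% unknown bases or of low quality, checked the rest with FastQC, aligned them with TopHat 2.1.0 to the MSU rice genome (annotation release 7), and deposited FPKM per gene from Cufflinks 2.1.1, with 1 set of values per library. The submitters' processing notes name the same tools. Strandedness and the treatment of reads shared between paralogs are not given in the sources used here. No value of 0 is listed, and low values did not fall on multiples of a single read, so read numbers were not recovered. Positions are as the files give them, and no source says whether their starts count from 0 or 1.

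The labels gave each sample's genotype, stage and replicate number. Deviations of same-numbered libraries correlated at 0.111 to 0.247 between the stages in WYJ8, where all 3 pairs were over 0.1. In the other comparisons they correlated at -0.266 to 0.163. By that bar the numbers were read as pairing the libraries between the stages in WYJ8 alone. The bar was applied to the same values, and neither the labels nor the methods say that these libraries were paired. The main tests were fitted without pairing, and a replicate block was an alternative. Unlisted genes were set to 0 FPKM. Genes averaging 1 FPKM or more were fitted as log2(FPKM + 1) with limma 3.58.1 in R 4.3.3, using 4 group means from the 12 libraries, a mean-variance trend in its empirical Bayes step and Benjamini-Hochberg adjustment over all 21470 tested genes. The thresholds were those of the study's methods. The fit was tested on simulated data. A fold change on this scale understates the change of low genes. All 8 genes were named with their value in every library, list genes were given as counts and ranges unless a source pairs identifier and name, and likeness was Pearson's r on log2(FPKM + 1). The 8 genes and the lists were chosen with earlier results of these data known, and the lists are not independent evidence. In a RefSeq gene table of another assembly, which gives no identifiers of this annotation, GLB1, OLE18 and VP1 occur on the same chromosome under their names and the EM-type gene and RAB16A under others (Osem, RAB21), but its GLB1 spans 3175 bases against 841 here, so the names rest on the rule that chose the genes. No sequences were printed.

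The alternatives were a pseudocount of 0.1, no filter, median-of-ratios scaling, an equal total without the 100 highest genes, only the libraries compared, a replicate block, each of the 12 libraries left out in turn and, chosen after seeing the data, unlisted values as missing and the list counts and NF-YB1 without the 2 libraries that stood apart.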

Additional observations from a re-analysis of the deposited data

Results flagged for a closer look

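For 4 of the 8 genes the difference between RGB1Ri-5 and WYJ8 itself differed between 10 and 5 DAF by the interaction test. RAB16A differed by -5.80 on the log2 scale, being lower in RGB1Ri-5 at 10 DAF and overlapping with WYJ8 at 5 DAF. The EM-type LEA gene differed by -3.99, with 4.54 FPKM as the only listed RGB1Ri-5 value at 10 DAF. The adjusted p of the EM-type gene missed 0.05 with a pseudocount of 0.1 (0.0567) and with unlisted values as missing (0.0801). Globulin 2 differed by -3.93, a call lost under 10 of 18 alternatives, with WYJ8 means of 1245 ± 350 FPKM at 10 DAF and 95.8 ± 132 FPKM at 5 DAF (SD, n = 3 each). LEC1-like NF-YB differed by 1.63, being unlisted in RGB1Ri-5 at 5 DAF and overlapping with WYJ8 at 10 DAF. RAB16A and LEC1-like NF-YB passed under every alternative that gave a value. The median over all tested genes was 0.86 on the FPKM scale and -0.06 by the median of ratios.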

How the results depend on the processing

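Of 749 values of the 8 genes under 19 alternatives, 678 kept their direction and side of the threshold, 51 lost it, 8 gained it and 12 changed sign. Many alternatives, such as no filter, the replicate block or leaving out a library outside the comparison, left a difference as it was. They moved only its adjusted p, so the direction could not change there. Every genotype call at 10 DAF (7 of 8 genes) held under all alternatives, and at 5 DAF every call but that of the EM-type gene held wherever a value could be had (6 or 7 of 8). Unlisted values as missing gave no value for LEC1-like NF-YB at 5 DAF in RGB1Ri-5.

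Scaling moved the counts over all genes. With median-of-ratios scaling and with an equal total without the 100 highest genes, 3938 and 4761 genes were called between genotypes at 10 DAF in place of 8527, 3096 and 3866 between stages in WYJ8 in place of 7613, and 5220 and 6667 in the interaction in place of 10373. Under median-of-ratios scaling 1986 genes were higher and 1952 lower in RGB1Ri-5 at 10 DAF, against 7811 and 716 as reported, 1514 higher and 1582 lower at 10 DAF in WYJ8, against 454 and 7159, 2348 higher and 2872 lower in the interaction, against 8882 and 1491, and the interaction of VP1 turned to -0.39. Without 1 library in turn, calls numbered 7604 to 10050 (genotype, 10 DAF), 4250 to 4712 (genotype, 5 DAF), 3345 to 4003 (stage, RGB1Ri-5), 6693 to 8464 (stage, WYJ8) and 9810 to 11277 (interaction).

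Members called between stages in RGB1Ri-5 numbered 1 to 4 without 1 library in turn and 1 with only the libraries compared. In WYJ8 they numbered 3 to 7 without 1 library in turn and 3 with no filter. In the interaction they numbered 3 to 6 without 1 library in turn and 2 with unlisted values as missing. Without RGB1Ri-5 replicate 2 at 10 DAF the stage change in RGB1Ri-5 turned to -0.57 for globulin 2, -0.10 for OLE18 and -0.13 for the EM-type LEA gene, and the interaction to -1.04 for GLB1, which are the lowest values without 1 library in turn. The highest were 1.45, 3.12, 1.11 and 2.53. The interaction of OLE16, near 0, ran from -1.83 to 0.94 without 1 library in turn, with 0.10, 0.13, 0.21, 0.36 and 0.70 among its values, and was 0.26 with a pseudocount of 0.1. That of globulin 2 was lost under 10 of 18 alternatives (adjusted p up to 0.0848), and that of the EM-type LEA gene with a pseudocount of 0.1 (adjusted p = 0.0567) and with unlisted values as missing (-2.41, adjusted p = 0.0801). The causes were not tested beyond what the left-out library shows.

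Replicate numbers met the bar for pairing (every same-numbered pair correlated over 0.1) between the stages in WYJ8 and in no other comparison. The replicate block was fitted over all 12 libraries and not for WYJ8 alone. With it 8529, 4459, 3622, 7607 and 10337 genes were called in the 5 comparisons, in place of 8527, 4470, 3631, 7613 and 10373. Among the 8 genes the block ended the call of VP1 between stages in WYJ8 (1.21, adjusted p = 0.0605) and changed no other call.

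Depth is unknown, so levels under 1 FPKM, such as those of VP1 and the EM-type LEA gene in RGB1Ri-5 at 5 DAF, carry a counting error that could not be sized.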
